A study of Homo sapiens with 8 samples.

Results

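The transforming growth factor beta (TGF-beta) ligands, receptors and SMADs were followed in SW480 and SW620, a pair of human colorectal cancer lines. The 10 genes, TGFB1, TGFB2, TGFBR1, TGFBR2, TGFBR3, SMAD2, SMAD3, SMAD4, SMAD7 and TGFBI, were taken by symbol and chosen with earlier results of these data known. All 10 were present once among the 40693 symbols of the tables. The libraries were 3 of SW620 carrying a FOXA2 hairpin RNA (shFOXA2), 3 of SW620 carrying a control hairpin (shNC), 1 of untreated SW620 and 1 of untreated SW480. SW480 and SW620 are both adenocarcinoma lines, placed by the labels at Dukes' type B and Dukes' type C, and are known to derive from the same patient. FOXA2 is a forkhead transcription factor that opens chromatin in endoderm. Hairpins came from a lentiviral vector that also carries puromycin resistance and mCherry, and puromycin selection gave stable populations in shFOXA2 and shNC. Cells meant for mice also carried luciferase. The histone modification data of the study were not analysed here.

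In this pathway a TGF-beta ligand brings the type II receptor and the type I receptor together at the cell surface. The type I receptor then phosphorylates SMAD2 and SMAD3, which join SMAD4, enter the nucleus and act on target genes, among them SMAD7, a feedback inhibitor of the receptors. In colon epithelium the pathway restrains growth, and its receptors and SMADs are often lost or mutated in colorectal cancer.

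Total counts over genes ran from 7478411 to 12068790 in shFOXA2 and from 12133652 to 13076566 in shNC, and were 95935348 in SW620 and 72323506 in SW480. Library shFOXA2 replicate 1 stood apart, with 36 tested genes at 30 or more counts and at least 4 times their level in any other hairpin library. The count was 3 genes for shNC replicate 1, and 0 for the remaining hairpin libraries. Chi-square per degree of freedom between replicates was 3.97 and 4.59 for the pairs with shFOXA2 replicate 1, and 4.43 and 4.34 for those with shNC replicate 1. Between replicates 2 and 3 it was 1.67 in shFOXA2 and 1.74 in shNC. Replicates thus differed beyond counting noise, and replicate 1 differed most in both groups. Whether replicates came from separate cultures is not stated in the labels, so p-values measure only the spread between these libraries. The 10 colorectal epithelial markers, such as EPCAM, CDH1 and the keratin KRT8, summed to 8185 to 8559.6 CPM (counts scaled to library size) in shFOXA2, 8261 to 8753 in shNC, 6040.1 in SW620 and 6221 in SW480, with CDX1 at 0 in all of these except SW620 and KRT20 at 0 in SW480. The 6 fibroblast markers summed to 13.0 to 15.5 CPM in shFOXA2, 8.96 to 10.8 in shNC, 8.42 in SW620 and 0.484 in SW480, with the collagens COL1A2 and COL3A1 at 0 in all 8 libraries. In the hairpin libraries most of this sum was LUM, at 11.5 to 14.3 CPM in shFOXA2 and 8.23 to 9.34 in shNC. The 6 leukocyte markers summed to 23.9 to 28.6 CPM in shFOXA2, 18.4 to 23.5 in shNC, 16.3 in SW620 and 5.46 in SW480, with the T cell gene CD3E at 0 in the 6 hairpin libraries and the leukocyte gene PTPRC at 0 in SW620 and SW480. The 3 endothelial markers found in the tables summed to 0.669 to 1.16 CPM in shFOXA2, 0.696 to 3.52 in shNC, 0.792 in SW620 and 0.816 in SW480. The part of these other markers in the results was not tested. In RNA from whole cultures, a change in the share of cells that express a gene and a change in RNA per cell cannot be told apart.

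The genes differed widely in abundance. Levels between genes are given as the authors' RPKM, which divides a count by the gene's length and by the library's total. TGFBR2 was the highest of the 10 genes in the hairpin libraries and in SW620, with a median of 53.0 RPKM in shFOXA2 and 23.8 RPKM in shNC, and 22.1 RPKM in SW620. In SW480 it was sixth, at 4.45 RPKM, and TGFBR1 was first, at 30.3 RPKM. SMAD4 was the lowest of the 10 genes in every group, with medians of 0.149 RPKM in shFOXA2 and 0.133 RPKM in shNC, and 0.136 RPKM in SW620 and 0.0797 RPKM in SW480. By these values TGFB2 was next to lowest in every group, though in shNC replicate 3 it lay below SMAD4 (0.112 and 0.148 RPKM). The plot of levels by library shows each gene on its own scale.

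**Figure D1:**
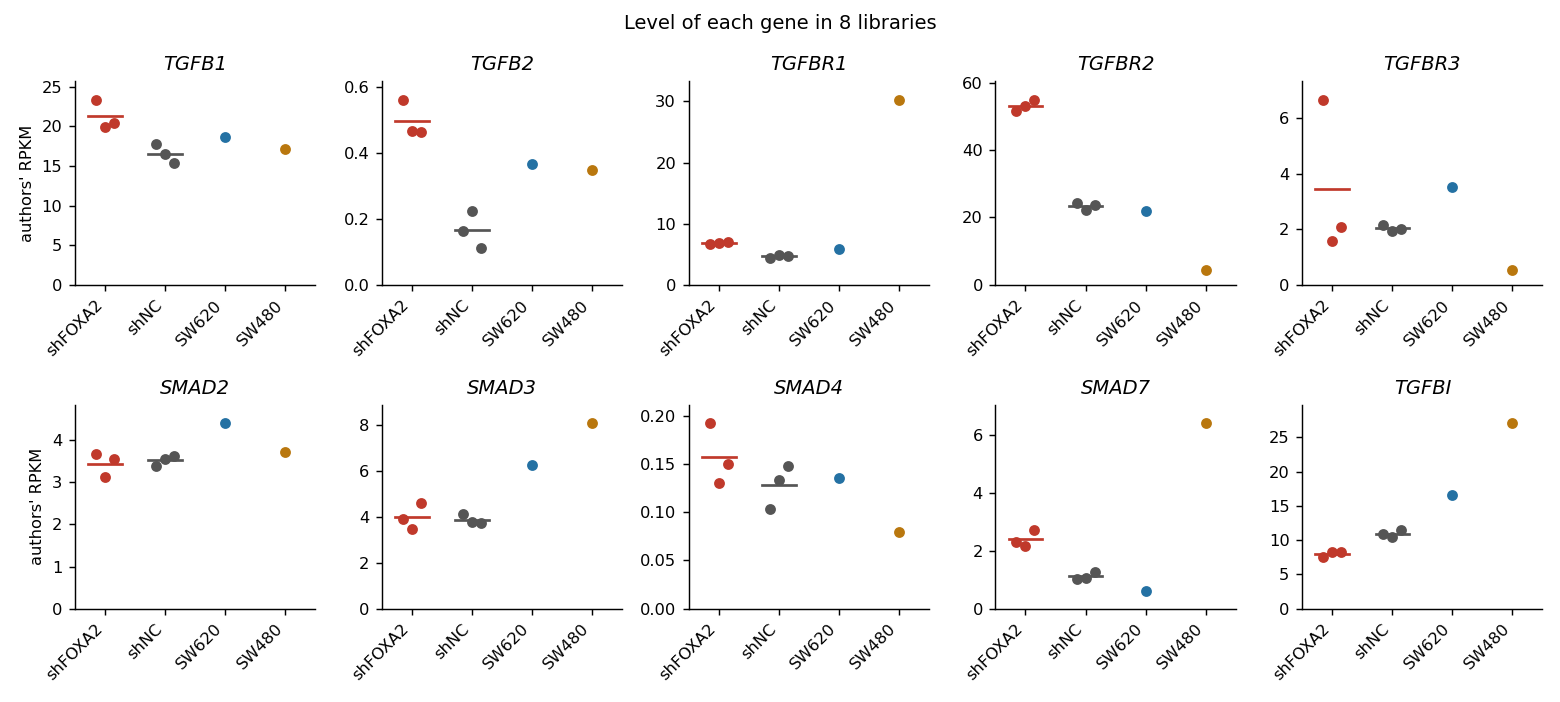
Authors' RPKM of each of the 10 genes (vertical axis, from 0, scaled per gene) in 3 shFOXA2, 3 shNC, 1 SW620 and 1 SW480 libraries (horizontal axis). Points are libraries and bars are means of 3. TGFBR2 and SMAD7 were higher in all 3 shFOXA2 than in all 3 shNC libraries, TGFBI was lower, and the high TGFBR3 point of 6.67 RPKM is shFOXA2 replicate 1.

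The first comparison asked how these genes differed when FOXA2 was lowered in SW620. With edgeR's quasi-likelihood test and Benjamini-Hochberg adjustment at 0.05 over 16100 genes, 5 of the 10 genes rose (TGFB1, TGFB2, TGFBR1, TGFBR2 and SMAD7), TGFBI fell, and TGFBR3, SMAD2, SMAD3 and SMAD4 were not called. All 10 passed the filter on low counts. Over all genes tested, 39.0% were called, 19.2% as higher and 19.8% as lower, so calls were common in these libraries. The median log2 fold change was 0.47 over the 10 genes and 0.01 over all genes tested. The first includes TGFBR3, whose value of 0.82 became -0.13 without shFOXA2 replicate 1. The 10 genes were chosen with earlier results of these data known, so these counts and medians describe them only. The 3 shFOXA2 libraries did not overlap the 3 shNC libraries for the 6 called genes, as was so for 48.7% of all genes tested (24.2% with shFOXA2 higher and 24.5% with shFOXA2 lower). For any single gene a two-sided exact permutation test of 3 libraries against 3 cannot go below p = 0.1.

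The hairpin libraries were first checked on FOXA2 itself. FOXA2 was at 30.3, 29.3 and 22.2 CPM in shFOXA2 replicates 1 to 3 and at 52.5, 49.0 and 51.9 CPM in shNC replicates 1 to 3. CPM here is TMM-scaled over the 6 libraries. FOXA2 was 1.87-fold lower in shFOXA2 (adjusted p = 6.88e-10 by edgeR), a partial loss with no overlap. The library titles point to the first of the FOXA2 hairpins that the labels list, without spelling it out. Its target, shown because parts of it can match other transcripts, reads as follows, with 2 overlapping stretches of 7 bases, AACACGT and ACACGTA, in capitals.
FOXA2-shRNA1 target: gaacggcatgAACACGTAcat
Of the 10 genes, SMAD2 holds AACACGT in its annotated 3' untranslated region (UTR) and the others hold neither stretch. Other stretches of the target, including those nearer its end, were not searched, so matches to them are unknown. Over 12441 tested genes with such a region, 5.97% hold at least 1 of the pair.

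TGFB1 encodes the most widely expressed TGF-beta ligand (ENSG00000105329.5; chr19:41301587-41353911, minus strand; gene positions are from GENCODE v29 on GRCh38, not from the files). It was at 76.4, 65.5 and 66.5 CPM in shFOXA2 replicates 1 to 3 and at 58.6, 53.3 and 49.2 CPM in shNC replicates 1 to 3. All shFOXA2 libraries were higher than all shNC libraries, by a margin smaller than the range within shFOXA2. The log2 fold change was 0.38 (adjusted p = 2.84e-05, SE 0.07), or 1.30-fold. Without shFOXA2 replicate 1, the highest library, it was 0.30 (adjusted p = 0.000713). Of the exon bases of TGFB1, 6.64% are shared with HNRNPUL1 on the opposite strand, and it is not stated whether counting used strand.

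TGFB2, a second ligand (ENSG00000092969.7; chr1:218346235-218444619, plus strand), was rare, with 35, 18 and 24 counts in shFOXA2 replicates 1 to 3 and 11, 15 and 7 counts in shNC replicates 1 to 3. As CPM these were 2.93, 2.44 and 2.40 in shFOXA2 and 0.856, 1.15 and 0.570 in shNC. The groups did not overlap, and the log2 fold change of 1.58 (adjusted p = 8.70e-05, SE 0.32) was the largest among the 10 genes, with a wide 95% interval of 0.94 to 2.23. TGFB2 shares 26.6% of its exon bases with TGFB2-OT1 on the same strand, so the source of those reads is uncertain. Within each library the per-length ratio of TGFB1 to TGFB2 was 41.5 to 44.0 in shFOXA2 and 73.5 to 137 in shNC, with TGFB1 the more abundant ligand in all of them.

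TGFBR2 encodes the type II receptor, the kinase that binds ligand first (ENSG00000163513.13; chr3:30606502-30694142, plus strand). It was at 245, 253 and 259 CPM in shFOXA2 replicates 1 to 3 and at 117, 104 and 111 CPM in shNC replicates 1 to 3. Each shFOXA2 library was higher than any shNC library by a wide margin. The log2 fold change was 1.19 (adjusted p = 1.23e-23, SE 0.05), or 2.29-fold, with the smallest SE and the smallest p among the 10 genes. It ranged from 1.15 to 1.26 as each library in turn, or both replicates numbered 1, were left out. By level, TGFBR2 in shFOXA2 exceeded 94.1% to 94.7% of tested genes in RPKM, against 84.4% to 86.1% in shNC.

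TGFBR1 encodes the type I receptor, the kinase that phosphorylates SMAD2 and SMAD3 (ENSG00000106799.8; chr9:99104038-99154192, plus strand). It was at 45.7, 47.4 and 48.7 CPM in shFOXA2 replicates 1 to 3 and at 30.6, 32.8 and 32.5 CPM in shNC replicates 1 to 3. The groups were separate, and TGFBR1 rose with a log2 fold change of 0.56 (adjusted p = 1.80e-08, SE 0.07), or 1.48-fold. Both signalling receptors thus rose, TGFBR2 by more. Within libraries the per-length ratio of TGFBR2 to TGFBR1 was 7.77 ± 0.02 in shFOXA2 and 5.04 ± 0.47 in shNC (SD, n = 3 each, two-sided exact permutation p = 0.1, the smallest value possible), and the groups did not overlap.

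TGFBR3 encodes betaglycan, a coreceptor that presents ligand, TGFB2 above all, to the type II receptor (ENSG00000069702.6; chr1:91680343-91906335, minus strand). It was at 58.3, 13.9 and 18.1 CPM in shFOXA2 replicates 1 to 3 and at 19.2, 16.8 and 17.2 CPM in shNC replicates 1 to 3. Replicate 1 of shFOXA2 was alone high, and the other two overlapped shNC. The log2 fold change was 0.82 (adjusted p = 0.404, SE 0.65), and without shFOXA2 replicate 1 it was -0.13 (adjusted p = 0.466).

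Among the SMADs, the receptor-activated pair was close to level between the hairpins. SMAD2 (ENSG00000175387.11; chr18:47808957-47931146, minus strand) was at 51.1, 43.6 and 49.0 CPM in shFOXA2 and at 47.5, 48.6 and 49.4 CPM in shNC, with overlapping groups. Its log2 fold change was -0.01 (adjusted p = 0.912, 95% interval -0.15 to 0.12). SMAD3 (ENSG00000166949.11; chr15:67063763-67195195, plus strand) was at 36.0, 32.1 and 42.0 CPM in shFOXA2 and at 38.1, 34.2 and 33.5 CPM in shNC, again with overlap. Its log2 fold change was 0.06 (adjusted p = 0.585, 95% interval -0.11 to 0.23). The upper end of either interval is below the log2 fold change of TGFBR1. The per-length ratio of SMAD3 to SMAD2 was 1.16 ± 0.12 in shFOXA2 and 1.10 ± 0.10 in shNC (SD, n = 3 each, two-sided exact permutation p = 0.5).

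SMAD4, the shared partner of the receptor-activated SMADs (ENSG00000141646.9; chr18:51028394-51085045, plus strand), had 31, 13 and 20 counts in shFOXA2 replicates 1 to 3 and 18, 23 and 24 counts in shNC replicates 1 to 3. These libraries overlapped. The log2 fold change was 0.34 (adjusted p = 0.367, SE 0.29, 95% interval -0.23 to 0.92), so no difference was detectable at this depth. Per length, SMAD4 made up 1.80% to 2.47% of the summed RPKM of SMAD2, SMAD3 and SMAD4 in shFOXA2, 1.36% to 1.97% in shNC, 1.26% in SW620 and 0.671% in SW480. By level it exceeded 0.98% to 3.68% of tested genes in the 8 libraries. In GENCODE v29, SMAD4 shares 7.37% of its exon bases with the same-strand gene AC091551.1, listed in the tables as RP11-729L2.2 with 83 counts in SW620 and 48 in SW480. How reads shared by such genes were counted, and how far they overlap in the authors' annotation, is not stated, so the low SMAD4 values are uncertain as levels.

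SMAD7, the inhibitory SMAD that blocks the type I receptor and is itself a target of the pathway (ENSG00000101665.4; chr18:48919853-48952052, minus strand), rose. It was at 8.53, 8.15 and 10.1 CPM in shFOXA2 replicates 1 to 3 and at 3.89, 3.85 and 4.56 CPM in shNC replicates 1 to 3. No libraries overlapped, and the log2 fold change was 1.13 (adjusted p = 6.36e-07, SE 0.17), or 2.18-fold. The per-length ratio of SMAD7 to the sum of SMAD2 and SMAD3 was 0.322 ± 0.018 in shFOXA2 and 0.150 ± 0.017 in shNC (SD, n = 3 each, two-sided exact permutation p = 0.1, the smallest value possible).

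TGFBI encodes a secreted matrix protein named for its induction by TGF-beta (ENSG00000120708.12; chr5:136028895-136063818, plus strand), and it was the member that fell. It was at 59.0, 66.3 and 65.1 CPM in shFOXA2 replicates 1 to 3 and at 86.4, 81.6 and 88.5 CPM in shNC replicates 1 to 3. All shFOXA2 libraries were lower than all shNC libraries. TGFBI fell by 0.43 on the log2 scale (adjusted p = 2.66e-08, SE 0.06), or 1.35-fold. TGFBI and SMAD7, both known as TGF-beta targets, thus moved in opposite directions in the same libraries.

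**Figure D2:**
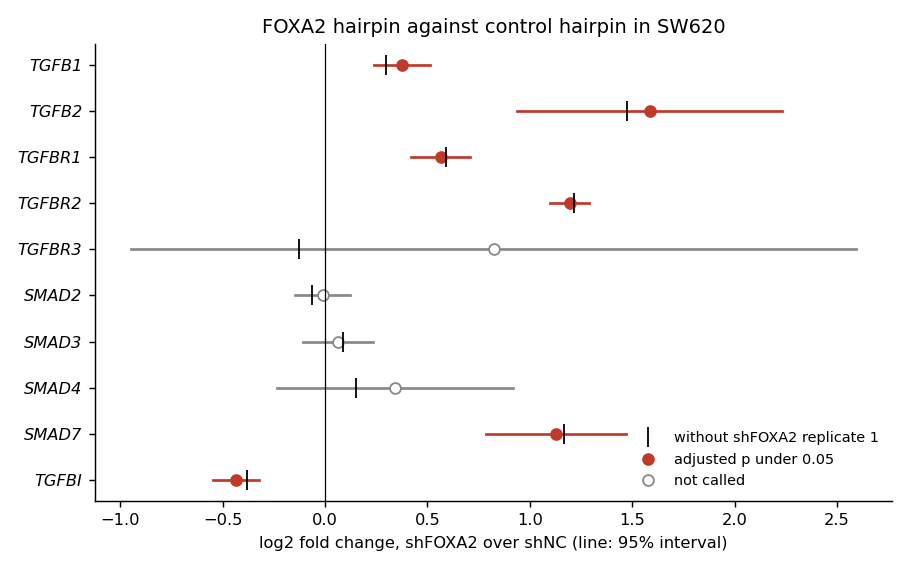
Log2 fold change of each of the 10 genes, shFOXA2 over shNC (horizontal axis), with 95% intervals, filled where the adjusted p was under 0.05, and a tick for the value without shFOXA2 replicate 1. The 5 rises and the fall of TGFBI keep clear of 0, and TGFBR3 moves to -0.13 without that library.

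**Figure D3:**
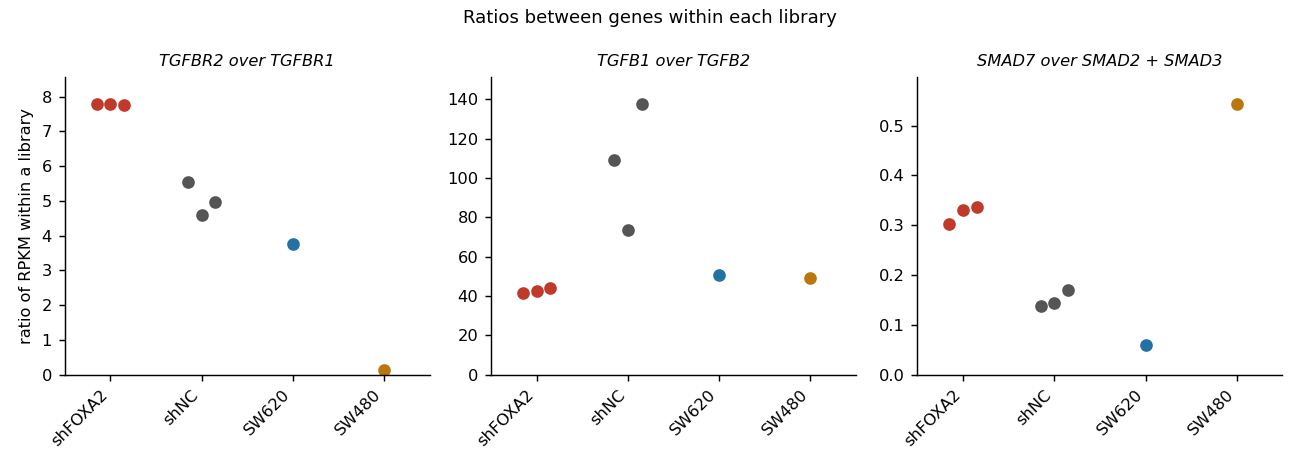
Ratios of authors' RPKM within each library (vertical axes, from 0) in 3 shFOXA2, 3 shNC, 1 SW620 and 1 SW480 libraries (points). TGFBR2 over TGFBR1 was 7.75 to 7.78 in shFOXA2 and 4.60 to 5.54 in shNC, and was 3.75 in SW620 and 0.147 in SW480.

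The start regions of the genes were read because FOXA2 binds forkhead sequence. RefSeq windows on GRCh38.p14, from 250 bases before to 50 after a gene's start, matched all 10 genes and gave 25 windows. The forkhead cores TGTTTAC and TATTTAC, on either strand, were in 4 of these windows, all as TATTTAC, and belonged to TGFB2, TGFBR2 and SMAD7. The other 7 genes had none. Over 35116 windows 5.97% hold either core, and over 27305 genes 7.25% have a window that does. The 10 genes have more windows each than genes at large, so the shares by gene are not like for like. The letters were chosen with these windows and the fold changes in view, so the count describes these genes only. The windows are shown because these 3 genes also had the highest fold changes among the called genes. Capitals mark TATTTAC or its reverse complement GTAAATA, and the AP-1 motif TGANTCA.
TGFBR2, chr3:30606351-30606650, plus strand: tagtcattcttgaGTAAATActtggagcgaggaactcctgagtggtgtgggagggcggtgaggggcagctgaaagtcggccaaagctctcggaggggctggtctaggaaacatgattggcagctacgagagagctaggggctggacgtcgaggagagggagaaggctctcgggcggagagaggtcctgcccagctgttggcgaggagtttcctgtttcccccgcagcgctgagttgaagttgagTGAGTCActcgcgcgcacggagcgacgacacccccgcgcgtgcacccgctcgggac
SMAD7, chr18:48949284-48949583, minus strand: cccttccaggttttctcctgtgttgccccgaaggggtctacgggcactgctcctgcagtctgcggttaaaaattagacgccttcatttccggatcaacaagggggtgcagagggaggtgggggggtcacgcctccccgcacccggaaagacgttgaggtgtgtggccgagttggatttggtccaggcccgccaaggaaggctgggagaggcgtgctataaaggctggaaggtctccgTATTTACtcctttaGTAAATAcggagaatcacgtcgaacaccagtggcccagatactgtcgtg
TGFB2, chr1:218345086-218345385, plus strand: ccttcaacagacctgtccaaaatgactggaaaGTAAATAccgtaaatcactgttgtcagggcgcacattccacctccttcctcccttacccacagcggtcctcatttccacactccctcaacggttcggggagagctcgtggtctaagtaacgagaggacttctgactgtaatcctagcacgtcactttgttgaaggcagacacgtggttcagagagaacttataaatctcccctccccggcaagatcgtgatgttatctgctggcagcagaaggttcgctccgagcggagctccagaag
The TGFB2 window ends before the gene start given above. SMAD7 had 3 windows, and only the one shown, which lies within the gene's span given above, holds a forkhead core. In that window the pair of cores faces each other across the window's own start, the first beginning 13 bases before it. In the TGFBR2 window the core begins 237 bases before the start, and the AP-1 motif, which 7.71% of all windows hold, begins 6 bases before it. The second TGFBR2 window overlaps the one shown and holds the same core. The SMAD palindrome GTCTAGAC was in none of the 25 windows and in 0.202% of all windows. The shorter SMAD half-site CAGACA was in 4 of the 25, windows of TGFB2, TGFBR1 and SMAD3, and in 16.9% of all windows. A match is a string of letters, and binding was not measured in these data.

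The second comparison set untreated SW620 against untreated SW480, with 1 library each, no replicates and no test. Values in CPM are TMM-scaled over the pair, and each ratio has an exact 95% interval in brackets, which covers counting error only. Of the 10 genes, 4 were at least 4-fold apart with 1 CPM added to each library, TGFBR2 and TGFBR3 higher and TGFBR1 and SMAD7 lower in SW620. Of 21343 genes that reached 20 counts in either library, 5.14% were that far apart, 2.27% higher and 2.87% lower in SW620. Genes near the floor of 20 counts could not reach 4-fold with 1 CPM added, and the limit reached well above that floor. TGFB2 and SMAD4, with 182 and 174 counts in SW620 (1.87 and 1.79 CPM), could not pass either. LTBP1, a latent TGF-beta binding protein, had 22 counts in SW620 and 275 in SW480, 17.2-fold lower in SW620, and did not pass. These shares thus include genes that could not pass, and they are low for that reason. With 0.1 CPM added, 2539 of the 21343 genes were that far apart, against 1098 with 1 CPM. The same 4 members passed 2-fold, against 16.8% of the 21343 genes, 7.99% higher and 8.85% lower in SW620. FOXA2, for reference, had 7882 counts in SW620 and 319 in SW480.

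Each of the 3 receptors differed by more than 4-fold. TGFBR2 had 9954 counts in SW620 and 1515 in SW480, or 102 and 21.4 CPM, a ratio of 4.79 (4.53 to 5.05). TGFBR3 had 2912 counts in SW620 and 346 in SW480, a ratio of 6.13 (5.48 to 6.87). TGFBR1 lay the other way, with 3864 counts in SW620 and 14999 in SW480, or 39.7 and 212 CPM, 5.33-fold lower in SW620 (5.14 to 5.52). The type II receptor was thus 3.75 times the type I receptor per length in SW620 and 0.147 times in SW480.

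SMAD7 had 221 counts in SW620 and 1711 in SW480, 10.6-fold lower in SW620 (9.23 to 12.3). TGFBI had 12460 counts in SW620 and 15328 in SW480, 1.69-fold lower in SW620 (1.65 to 1.73). SMAD4 had 174 counts in SW620 and 77 in SW480, a ratio of 1.65 (1.25 to 2.18) with the uncertainty on its counting given above. SMAD3 was 1.34-fold lower in SW620 (1.29 to 1.39), and SMAD2 had a ratio of 1.14 (1.10 to 1.19). The ligands were nearest to equal, with ratios of 1.05 for TGFB1 (1.01 to 1.10) and 1.02 for TGFB2 (0.810 to 1.29). With no replicate library, the spread within a line is unknown, and for ratios this near 1 no difference between the lines is claimed.

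Set side by side, the comparisons use different libraries. Of the 6 genes called between hairpins, TGFBR1 and SMAD7 were higher in shFOXA2 and higher in SW480, so that shFOXA2 lay on the SW480 side of shNC. TGFBR2 was higher in shFOXA2 but lower in SW480, and TGFBI was lower in shFOXA2 but higher in SW480, so both lay away from SW480. TGFB1 and TGFB2 were higher in shFOXA2 and close to equal between the lines. The amount of the shift also differed, since TGFBR1 had 6.62 to 7.09 RPKM in shFOXA2 and 4.39 to 4.81 in shNC, against 30.3 in SW480.

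**Figure D4:**
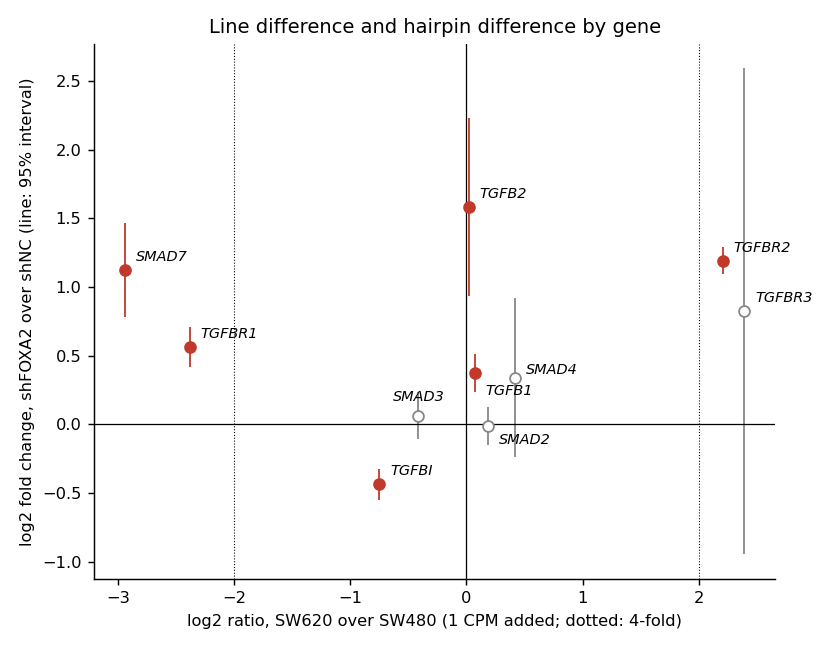
Log2 fold change of shFOXA2 over shNC with its 95% interval (vertical axis) against the log2 ratio of SW620 over SW480 with 1 CPM added (horizontal axis, dotted lines at 4-fold) for the 10 genes, filled where the hairpin test was called. TGFBR1 and SMAD7 stand at upper left and TGFBR2 at upper right.

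The order of levels over the 4 groups, in authors' RPKM, was not the same for any pair of the receptors. For TGFBR2 it was shFOXA2 (51.5 to 54.9), shNC (22.1 to 24.3), SW620 (22.1) and SW480 (4.45), with SW620 just below the shNC range. For TGFBR1 it was SW480 (30.3), shFOXA2 (6.62 to 7.09), SW620 (5.88) and shNC (4.39 to 4.81). For TGFBR3 it was SW620 (3.51), shFOXA2 (1.58 to 6.67), shNC (1.95 to 2.17) and SW480 (0.553), with the hairpin groups overlapping. SMAD7 was highest in SW480 (6.41), then shFOXA2 (2.17 to 2.73), shNC (1.04 to 1.25) and SW620 (0.624). TGFBI was highest in SW480 (27.1), then SW620 (16.6), shNC (10.5 to 11.4) and shFOXA2 (7.47 to 8.33). TGFB1 was highest in shFOXA2 (19.9 to 23.4), with SW620 (18.6) next, SW480 (17.1) within the shNC range and shNC at 15.4 to 17.8. TGFB2 was highest in shFOXA2 (0.465 to 0.563), then SW620 (0.368), SW480 (0.349) and shNC (0.112 to 0.225). SMAD2 (3.12 to 3.68 in shFOXA2, 3.39 to 3.63 in shNC, 4.41 in SW620, 3.73 in SW480) and SMAD3 (3.46 to 4.59 in shFOXA2, 3.72 to 4.10 in shNC, 6.23 in SW620, 8.07 in SW480) were both lower in shNC than in the untreated lines. Untreated and hairpin libraries differed in depth and in the share of counts from mitochondrial genes, at 4.66% to 4.76% in shFOXA2 and 4.46% to 4.82% in shNC, against 11.1% in SW620 and 11.7% in SW480. They were not compared by a test.

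The other genes of the pathway were counted on 4 lists with 62 genes, of which 56 could be tested between the hairpins. On these lists 24 genes rose and 6 fell, with a median log2 fold change of 0.20, against 19.2% of all tested genes called higher, 19.8% called lower and a median of 0.01. Counts on single lists are small, and those of the SMAD partners lie near these shares. The lists were also chosen with earlier results of these data known, so their counts describe these genes only. In ligand storage and activation, 5 of 10 tested genes rose and 0 fell (median 0.30). ITGB8 (0.93, SE 0.07, adjusted p = 1.99e-14) and ITGAV (0.68, adjusted p = 9.53e-10), chains of the integrin that releases active TGF-beta from its latent form, both rose, and ITGB8 was at 67.6 ± 7.50 CPM in shFOXA2 and 35.5 ± 0.61 CPM in shNC (SD, n = 3 each). LTBP3, a latent TGF-beta binding protein, had a log2 fold change of 0.31 (adjusted p = 1.80e-07).

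Among receptor partners and brakes, 6 of 13 tested genes rose and 1 fell (median 0.10). SMURF2, a ubiquitin ligase that with SMAD7 marks the receptors for breakdown, was at 56.4 ± 0.91 CPM in shFOXA2 and 27.6 ± 2.10 CPM in shNC (SD, n = 3 each), a difference of 1.03 on the log2 scale (adjusted p = 1.72e-15, SE 0.07). BAMBI, a pseudoreceptor without a kinase, rose by 0.75 on the log2 scale (adjusted p = 1.82e-18), and WWP1, a related ubiquitin ligase, by 0.52 (adjusted p = 2.16e-06). PMEPA1 was the gene of this list that fell (-0.13, adjusted p = 0.0468), and it was not called without shFOXA2 replicate 1, shFOXA2 replicate 2, shNC replicate 2 or shNC replicate 3, with an adjusted p of up to 0.331.

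SMAD partners and corepressors were mixed, with 3 of 13 tested genes higher and 4 lower (median -0.02). Without shFOXA2 replicate 1, TGIF1 of this list was not called (adjusted p = 0.0520), and without shNC replicate 2, TRIM33 was not (adjusted p = 0.0518). SKI, a corepressor of SMAD complexes, fell by 0.57 on the log2 scale (adjusted p = 1.80e-09), HIPK2, a nuclear kinase, fell by 0.57 (adjusted p = 2.09e-10) and CREBBP, a histone acetyltransferase, fell by 0.48 (adjusted p = 9.02e-10). Of known target genes, 10 of 20 tested rose and 1 fell (median 0.54). The list sets no expected direction for each gene, so these counts do not measure the output of the pathway. ADAM19, a membrane protease, rose by 1.22 on the log2 scale (adjusted p = 2.62e-21) and CDKN2B, a cell cycle inhibitor, by 0.67 (adjusted p = 1.18e-10), while TAGLN, an actin-binding protein, fell by 1.04 (adjusted p = 2.42e-13). TGFB1I1 of this list was not called without shFOXA2 replicate 3, shNC replicate 2 or shNC replicate 3, with an adjusted p of up to 0.128. CDKN1A, another of the 10, was not called without both replicates numbered 1 (adjusted p = 0.0520).

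**Figure D5:**
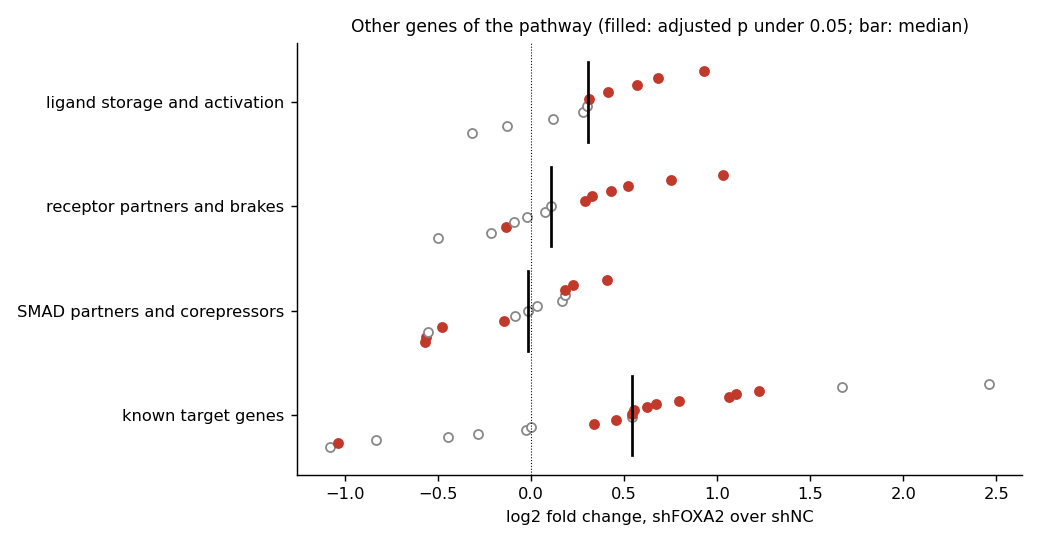
Log2 fold change of shFOXA2 over shNC (horizontal axis) for the 56 tested genes of 4 pathway lists (rows), filled where the adjusted p was under 0.05, with a bar at each list's median. Target genes spread widest, and the list of SMAD partners has calls on both sides of 0.

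Between the untreated lines, the pathway lists held 4 genes at least 4-fold higher and 7 at least 4-fold lower in SW620, of 61 counted, against 2.27% of all 21343 genes higher and 2.87% lower. As above, these shares include genes with too few counts to pass. THBS1, an activator of latent TGF-beta, had 30806 counts in SW620 and 1250 in SW480, a ratio of 18.0 (17.0 to 19.0), and ITGB8 a ratio of 7.51 (6.74 to 8.39). LTBP2 was 13.5-fold lower in SW620 (11.3 to 16.3). SMAD6, the inhibitory SMAD of the bone morphogenetic protein branch, had 2949 counts in SW620 and 109 in SW480, a ratio of 19.7 (16.3 to 24.1), opposite in direction to SMAD7. SMAD5, which serves the same branch, was 3.47-fold lower in SW620 (3.36 to 3.58), and HIPK2 had a ratio of 3.48 (3.40 to 3.56). SMURF2 was 4.76-fold lower (4.55 to 4.98) and WWP1 2.05-fold lower (1.96 to 2.15) in SW620, while PMEPA1, a membrane protein that holds back SMAD activation, had a ratio of 2.97 (2.84 to 3.10). On the list of known target genes, which sets no expected direction, ID1 had a ratio of 27.2 (23.0 to 32.5). CDKN1A, a cell cycle inhibitor on the same list, was 5.56-fold lower in SW620 (5.19 to 5.97).

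Genes whose pattern over the 8 libraries was most like that of TGFBR2 were sought by Pearson's r of log2(CPM + 1), over 13203 genes with a mean of at least 2 on that scale. The closest 5 were RP11-244F12.2 (r = 0.996), the death receptor gene TNFRSF10B (0.995), the dynactin subunit DCTN6 (0.994), the death receptor family member TNFRSF21 (0.993) and KIAA1522 (0.993). The 8 points share a line and a hairpin contrast, so such values describe likeness only. In the hairpin test these genes had log2 fold changes of 0.66, 0.31, 0.32, 0.74 and 0.32, all smaller than that of TGFBR2.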

How the data were processed

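Total RNA libraries were made with a directional kit, per the labels. Each deposited table holds 42713 genes with a raw count, a length and the authors' RPKM. Recomputed from count, length and table total, the RPKM matched in 100% of genes above 20 counts (relative tolerance 0.0001). HOMER and hg19 stand in the submitters' processing notes without roles. No aligner, counter or annotation is named in the labels.

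The deposited counts of the 6 hairpin libraries were tested in edgeR 4.0.16 (R 4.3.3; TMM, default expression filter, robust quasi-likelihood, two-sided, Benjamini-Hochberg at 0.05 over all genes). SE is the log2 fold change over the square root of F. The 256 repeated symbols were represented by the entry with the highest summed count. For the untreated lines, TMM-scaled CPM plus 1 gave log2 ratios for genes reaching 20 counts in either line, with 4-fold as threshold. A limit of 3 counts is 0.0313 to 0.401 CPM. Alternatives covered scaling, filter, tool (DESeq2 1.42.0, limma 3.58.1), a replicate block, libraries left out, repeated symbols, pseudocount and threshold. Leaving out both replicates numbered 1 was chosen after seeing the data.

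The 10 genes and the lists were chosen with earlier results of these data known. Named pathway genes were up to 3 per list by p among called genes, and up to 3 per list by ratio between the lines among genes with at least 100 counts and 2-fold. A gene that this rule names is not reported here. A run on simulated data of 16100 genes had 50 genes changed per fold. There edgeR called 13 of the 1.25-fold genes, 34 of the 1.5-fold genes, 44 of the 2-fold genes and 50 of the 4-fold genes. It also called 6 unchanged genes. The hairpin comparison had a far larger share of calls, at 39.0% of genes tested, and recovery at that share was not tested. Promoter motifs were chosen after the windows were read. Plots used Python 3.11.15 and matplotlib 3.10.9.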

Additional observations from a re-analysis of the deposited data

How the results depend on the processing

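All alternatives run for the hairpin comparison called 6 of the 10 genes, and no called member changed direction or lost its call under any of them. The total of called genes was 6280, and 6276 with DESeq2 size factors, 6213 with total counts, 6196 with no filter, 4901 with the DESeq2 Wald test (which gave no adjusted p for 960 genes), 5958 with limma-voom and 6286 with repeated symbols summed. With libraries left out it ran from 5299 to 5872, the members called stayed at 6 and the pathway genes called ran from 28 to 38, against 30 with all libraries. Same-numbered libraries did not deviate together (correlations of 0.01, -0.05 and 0.00 over tested genes), so the numbers are not read as pairs. With a replicate block 6139 genes and 6 members were called. For the untreated lines, 1098 genes were at least 4-fold apart, 2539 with a pseudocount of 0.1 CPM and 3595 at 2-fold, and the number of members was 4 in each. With 0.1 CPM added the log2 ratio was -3.35 for SMAD7 and 2.59 for TGFBR3, against -2.94 and 2.39 with 1 CPM, because both are low in 1 of the lines. Depth limits TGFB2 and SMAD4, which had 7 to 35 counts per hairpin library.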

Other observations

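Some pathway genes outside the rule for named genes are listed here because shFOXA2 replicate 1 decided their value, and they were chosen after their values were seen. TGFBRAP1, a protein that binds the TGF-beta receptors, was at 73.3, 44.8 and 42.0 CPM in shFOXA2 replicates 1 to 3 and at 79.2, 77.3 and 73.8 CPM in shNC replicates 1 to 3. Its log2 fold change was -0.50 (adjusted p = 0.204 by edgeR), and -0.83 (adjusted p = 5.51e-15) without shFOXA2 replicate 1. FN1, the matrix protein fibronectin, was at 90.5, 21.2 and 21.9 CPM in shFOXA2 and at 14.0, 15.3 and 14.1 CPM in shNC. Its log2 fold change was 1.67 (adjusted p = 0.171) with all libraries and 0.58 (adjusted p = 5.47e-05) without shFOXA2 replicate 1. CTGF, a matricellular target gene, was at 74.2, 10.6 and 11.2 CPM in shFOXA2 and at 9.34, 4.85 and 3.99 CPM in shNC, with a log2 fold change of 2.46 (adjusted p = 0.168), or 0.85 (adjusted p = 0.145) without that library. TGFBR3, the coreceptor, shares the high value in that library.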
